A study of Mus musculus with 8 samples.

Results

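The genes described here are the mouse genes whose symbol is Zfp followed by a number, the naming series that holds most of the mouse genes for proteins with zinc fingers. They were measured on Affymetrix 430A arrays of 22690 probe sets in TTE3 cells, a Sertoli cell line from the testis of transgenic mice that carry a temperature-sensitive SV40 large T antigen. Total RNA was taken at 0, 3, 6 and 12 h of 0.2 mM bisphenol A (BPA), a plastics monomer with weak oestrogenic activity, with 2 arrays at each time and 8 in all. The 4 groups differ, by their labels, only in hours of BPA, and every group carries the large T antigen. No untreated cells at 3, 6 or 12 h were analysed here, so hours of BPA and hours in culture cannot be told apart. Nothing in the labels says that arrays of 1 time stem from different cultures; p-values therefore measure only how far these arrays spread, which may be technical. Single arrays are named by time and number, so that 3 h-2 is array 2 of the 3 h group.

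A gene was taken where a probe set named it alone, and its brightest probe set by mean log2 signal stood for it. Zfp36, whose protein binds RNA through another type of finger, was left out. Of 156 such genes, 112 had a mean signal over the 8 arrays above 100 and are the members; the other 44 lay below. Just inside the threshold were Zfp39 at 100.56, Zfp239 at 103.84 and Zfp160 at 104.96, and just outside were Zfp593 at 98.2, Zfp87 at 96.8 and Zfp235 at 95.7. Signal is the deposited intensity in arbitrary units. Since the mean ran over all times, a gene with a low 0 h signal could become a member through a later high one. Such members, with 0 h means below 100, included Zfp61 (66.4), Zfp39 (43.25), Zfp202 (92.05) and Zfp54 (70.05). The others were Zfp958, Zfp1, Zfp120, Zfp189, Zfp30, Zfp954, Zfp605, Zfp329 and Zfp467. All of these but Zfp30, Zfp954 and Zfp467 were called higher at 1 or more times. Zfp160 instead passed through its 0 h mean of 160.85. Members that passed through their 0 h arrays were not counted, and the main counts below include both kinds. Member means ran up to 4354 with a median of 288.0, against a median of 475.1 over the 8675 genes tested, and all 112 members passed the filter on low signals.

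Most Zfp genes encode C2H2 zinc finger proteins, in which a row of fingers reads a stretch of DNA, one finger after the next. The largest group also carries a KRAB domain, which recruits the corepressor Trim28 and, through it, enzymes that build silent chromatin, often over transposable elements. Such genes sit in clusters formed by repeated duplication, and many of their mRNAs are known to turn over quickly; no half-life was measured here. Several genes share the Zfp name without being classical repressors and act on RNA, ribosomes, ubiquitin or SUMO.

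The labelled cell type was checked against its markers. Of 18 Sertoli cell genes measured, 9 had a mean signal above 100, among them Gata4 at 793.0, Wt1 at 166.4 and Sox9 at 123.7. Sox9 and Inha exceeded 100 only through the treated arrays, with means of 43.55 and 70.25 at 0 h. The Sertoli genes Amh and Fshr were at 15.0 and 46.2. None of 10 germ cell and none of 4 endothelial genes exceeded 100, against 1 of 4 for Leydig cells, 2 of 5 for macrophages and 3 of 6 for peritubular cells. The summed signal of the Sertoli list ranged over the times between 7149 and 11255, that of the peritubular list between 4828 and 9624 and that of the germ cell list between 219.8 and 351.4. Clu, with a mean of 5585, made up most of the first sum and the peritubular gene Dcn, at 5958, most of the second, and both were lowest at 12 h; their part in the Zfp results was not tested. Each array had the same mean signal without its extreme values, 499.96, and medians lay between 150.9 and 170.1. Log2 signals of the 2 arrays of a time correlated at 0.984, 0.980, 0.974 and 0.978 at 0, 3, 6 and 12 h, over genes, which are not independent replicates.

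Within 3 h of BPA the Zfp genes had moved mostly upward, with the largest count and median rise at 6 h when all 8 arrays were used. A gene is called here when limma, fitted across all 8675 genes on log2(signal + 7.9), gave a Benjamini-Hochberg adjusted p under 0.05; a log2 change on this scale understates the change of dim genes. At 3 h, 37 of the 112 members (33%) were called higher and 2 (1.79%) lower than at 0 h, where 8.55% of all genes tested were called higher and 3.53% lower. At 6 h, 52 members (46.4%) were higher and 6 (5.36%) lower, against a background of 16.8% and 9.73%. At 12 h, 42 members (37.5%) were higher and 13 (11.6%) lower, against 20.9% and 17.5%. Among the genes with a mean signal above 100, as the members had, the shares called higher were 9.85%, 19.2% and 23.8% and the shares called lower 4.06%, 11.2% and 20%. The members' upward share thus stood above the background at each time, and their downward share below it. Members and other genes above 100 alike could pass that threshold through their treated arrays, and the difference in shares was not tested. At 3 h the members' share called lower rests on 2 genes, and without the intensity trend it was 1.79%, against 1.64% of all genes.

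**Figure D1:**
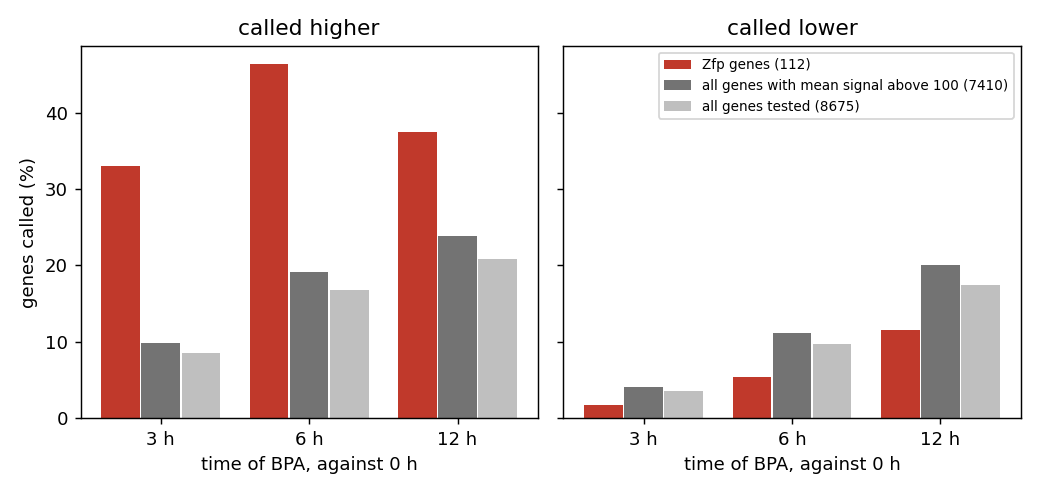
Percent of genes called higher (left panel) or lower (right panel) than at 0 h after 3, 6 and 12 h of BPA, for the Zfp genes, all genes with a mean signal above 100 and all genes tested. The Zfp bars for higher genes reach 33%, 46.4% and 37.5%, against 8.55%, 16.8% and 20.9% for all genes.

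The median member changed by 0.43 on the log2 scale at 3 h, 0.51 at 6 h and 0.35 at 12 h, against 0.06, 0.07 and 0.06 for all genes tested. Both treated arrays lay above both 0 h arrays in 77 members at 3 h, 75 at 6 h and 63 at 12 h, or 68.8%, 67% and 56.2%, where 34.7%, 36.6% and 38.6% of all genes did so. Both lay below in 11, 13 and 24 members, where the background was 23.3%, 25.4% and 30.9%. Taken array by array, the members' median distance from the 0 h mean was 0.45 and 0.44 on the 3 h arrays, 0.44 and 0.50 on the 6 h arrays and 0.33 and 0.44 on the 12 h arrays. Every one of the 6 treated arrays showed the upward shift. Between 75 and 93 members lay above their own 0 h mean on each.

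**Figure D2:**
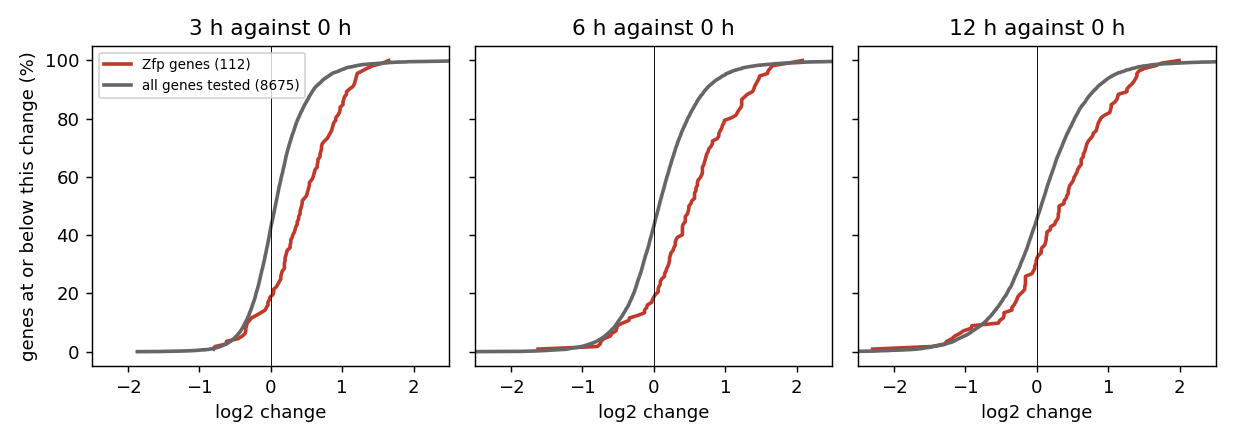
Distribution of the log2 change from 0 h at 3, 6 and 12 h, with the 112 Zfp genes beside all genes tested. The Zfp medians of 0.43, 0.51 and 0.35 lie right of those of all genes, and the Zfp distribution has a longer downward tail at 12 h than at 3 h.

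These counts depended on the array left out, while the order against the background did not. The peak at 6 h in the share called higher was lost without 0 h-1 or either 6 h array. Without 0 h-2 the 6 and 12 h shares were equal. The members' medians at 3, 6 and 12 h were 0.43, 0.44 and 0.35 without 6 h-2, and 0.43, 0.50 and 0.35 without 6 h-1. Without 0 h-1 the members called higher were 24 at 3 h and 31 at 6 h, which is 21.4% and 27.7%, against 4.2% and 10.8% of all genes. Without 3 h-2, 23 members (20.5%) were called higher at 3 h, against 4.73% of all genes. Those called lower at 6 h were 2 without 0 h-1, 3 without 6 h-1 and 2 with the mean of all probe sets of a gene, and those called lower at 12 h were 8 without 12 h-1. With the arrays scaled to equal medians instead, 28.6% of the members and 5.3% of all genes were called higher at 3 h and 2.68% and 7.38% lower, and at 6 h the shares were 39.3% and 12% higher and 6.25% and 14.2% lower. Calls fell on bright and dim members: of the 56 with the higher mean signals 22, 31 and 25 were called higher at the 3 times, and of the 56 with the lower ones 15, 21 and 17.

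The members' calls describe an early rise that mostly lasted, and fewer falls, with the most called at 12 h. The members' share called lower at 12 h, 11.6%, lay below the 17.5% of all genes. The counts that follow were made for the members only. Whether they differ from those of all genes was not tested. Higher at 1 or more times were 56 members, higher at all 3 times 29, lower at 1 or more times 13, and called at no time 44. Of the 37 genes higher at 3 h, 35 were also higher at 6 h. Another 17 were first called at 6 h, and 2, Zfp991 and Zfp605, at 12 h only. Lower at 12 h without an earlier call were Zfp503, Zfp53, Zfp362, Zfp64, Zfp101 and Zfp160. By mean signal, 71 members were lowest at 0 h and 30 at 12 h, while 15 were highest at 0 h, 28 at 3 h, 48 at 6 h and 21 at 12 h. A rise of at least 2-fold was reached by 15, 22 and 21 of the called members, and a fall of that size by 0, 1 and 8. No share at 2-fold was taken over all genes. With changes of any size, 8.55%, 16.8% and 20.9% of all genes were called higher and 3.53%, 9.73% and 17.5% lower.

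Tests between the BPA times themselves called fewer genes. At 6 h against 3 h, 1 member was called higher and 0 lower, where 0.565% and 0.553% of all genes were called. At 12 h against 6 h, 0 members were called higher and 5 lower, against 0.922% and 3.85% of all genes, and the median member changed by -0.18, against -0.02 for all genes. At 12 h against 3 h, 6 members (5.36%) were higher and 15 (13.4%) lower, against 9.52% and 12.4% of all genes. Without the intensity trend these were 1 and 14. They were 3 and 8 without 12 h-1, and 2 and 7 without 3 h-2. With single arrays left out, between 0 and 5 members were called between 12 and 6 h, 0 without 12 h-1, and at most 3 of them were among the 5 called with all arrays. A test over all times at once, limma's F test, called 63 members (56.2%), against 35.8% of all genes.

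**Figure D3:**
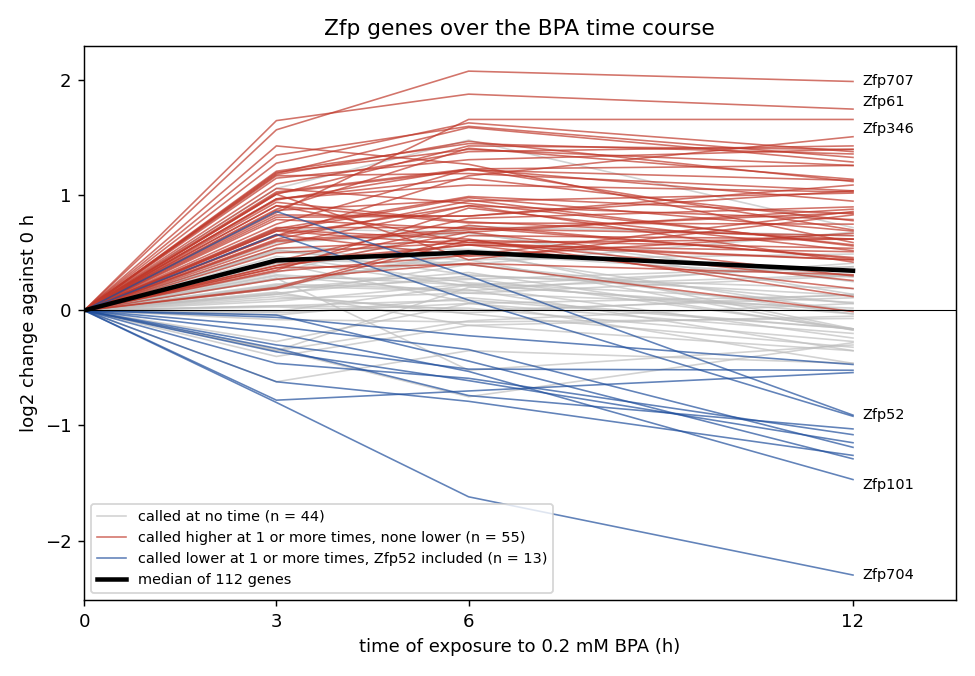
Log2 change from 0 h of each of the 112 Zfp genes over 0, 3, 6 and 12 h of BPA, each line 1 gene, coloured by whether it was called higher, lower or at no time, with named examples. Zfp52, called higher at 3 h and lower at 12 h, is drawn among the lower genes. Most called lines leave 0 upward by 3 h and stay there, while Zfp704 ends at -2.30.

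Among the zinc finger genes with the largest sustained rises was Zfp707. It had signals of 143.2 and 114.0 at 0 h, 362.7 and 428.3 at 3 h, 566.3 and 563.1 at 6 h, and 518.8 and 543.3 at 12 h. No treated array came near the 0 h arrays. The log2 changes were 1.57 ± 0.16 (SE), 2.08 ± 0.16 and 1.99 ± 0.16, with limma adjusted p of 2.96e-05, 1.16e-06 and 1.32e-06. Zfp623, its direct neighbour on the chromosome, read 440.2 and 435.9 at 0 h, 1180 and 979 at 3 h, 1310 and 1436 at 6 h, and 1155 and 1158 at 12 h, changes of 1.28, 1.63 and 1.38, each ± 0.13. Both genes thus more than doubled at 3 h and were called at all 3 times, whichever single array was left out.

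Zfp61 gave the members' largest rise at 3 h. Its signals were 79.4 and 53.4 at 0 h, 219.7 and 224.5 at 3 h, 274.5 and 250.5 at 6 h, and 227.9 and 249.9 at 12 h. The changes were 1.65, 1.88 and 1.75, each ± 0.22, with limma adjusted p of 0.000307, 5.15e-05 and 4.92e-05, and they too were called with any single array left out. Its neighbour Zfp93 read 117.4 and 116.9 at 0 h, 287.7 and 260.3 at 3 h, 287.2 and 268.9 at 6 h, and 230.6 and 270.6 at 12 h, changes of 1.17, 1.19 and 1.04. In both genes every treated array stood well above the 0 h arrays, and the treated times lay close to one another.

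Zfp688 read 162.2 and 203.7 at 0 h, 405.9 and 445.0 at 3 h, 669.4 and 474.6 at 6 h, and 450.4 and 461.8 at 12 h, with changes of 1.19, 1.59 and 1.29. Zfp202, in human a repressor of genes of lipid metabolism, changed by 1.21, 1.45 and 1.36; its 3 h call was lost without 0 h-2 (1.02, adjusted p = 0.0655) or 3 h-2 (1.03, adjusted p = 0.0652). Zfp37, a gene described in the germ cells of the mouse testis, and Zfp39 were called at 6 and 12 h but not at 3 h. Zfp37 read 116.3 and 146.2 at 0 h, 189.4 and 232.2 at 3 h, 227.4 and 406.4 at 6 h, and 306.5 and 483.7 at 12 h. The replicates of Zfp37 lay far apart at 6 and 12 h, and its change of 1.51 ± 0.28 at 12 h was called (limma adjusted p = 0.000811) while that of 0.65 at 3 h was not (0.153). A dimmer probe set of Zfp37, with a mean signal of 223.7, changed by 1.42, 1.80 and 2.12 and so was up more than 2-fold at 3 h. Zfp39 changed by 1.10 (0.0581), 1.38 (0.0107) and 1.43 (0.00547), with both 3 h arrays already above both 0 h arrays. The 6 h calls of Zfp37 and Zfp39 were both lost without 0 h-1 (1.02 and 1.16) or 6 h-2 (0.77 and 0.96). The step of Zfp37 between 3 and 12 h, 0.85 (0.0425), was lost without either 0 h array, either 3 h array or 12 h-2, with values between 0.53 and 0.99.

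**Figure D4:**
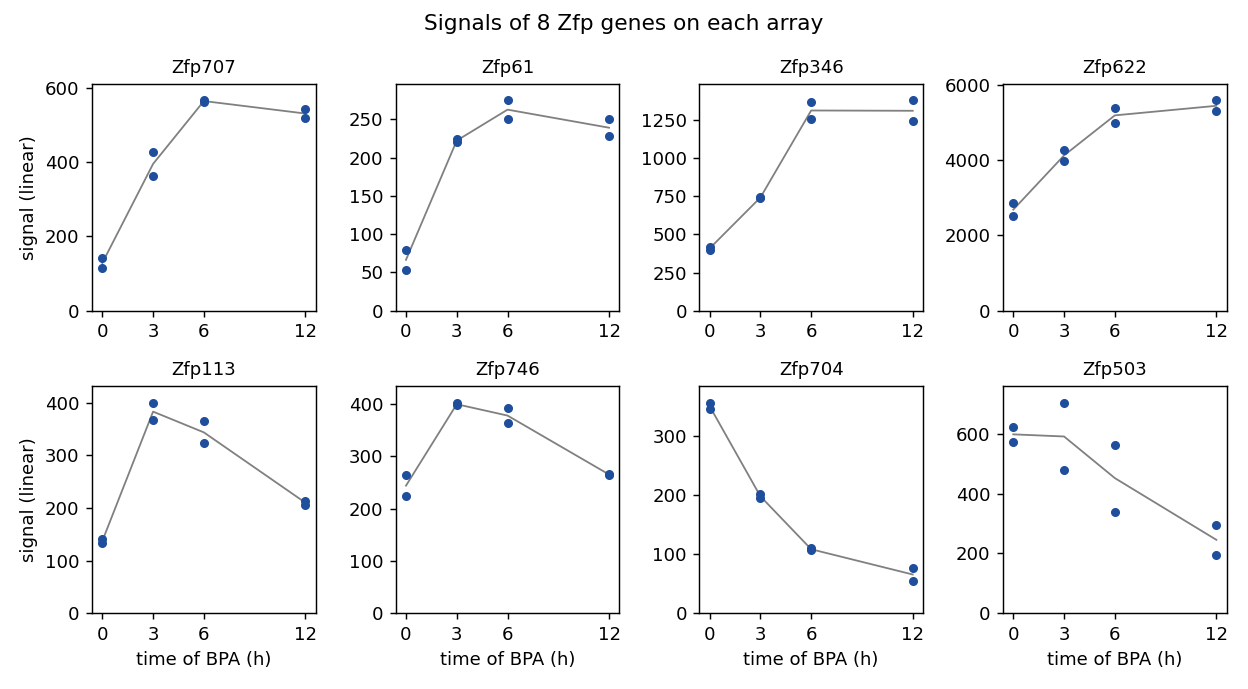
Deposited signal on each of the 8 arrays (points) and the mean of the 2 arrays (line) for 8 Zfp genes against hours of BPA, each panel with its own axis from 0. Zfp707 and Zfp61 rise by 3 h and stay up, Zfp113 comes down again by 12 h, and Zfp704 falls throughout.

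A short rise was seen in Zfp113. Its signals were 140.7 and 133.6 at 0 h, 399.2 and 366.4 at 3 h, 322.4 and 364.4 at 6 h, and 213.9 and 205.8 at 12 h. The 12 h arrays lay above both 0 h arrays and below every 3 and 6 h array. The changes from 0 h were 1.43 ± 0.17 (limma adjusted p = 0.000105), 1.27 (0.000151) and 0.59 (0.0152), and the 12 h signal was lower than the 3 h signal by a log2 change of -0.84 (0.00381). The 12 h call against 0 h was lost without 0 h-2 (0.55) or 12 h-1 (0.56), and the step of -0.69 after 6 h (0.0376) was lost when any 1 of the 8 arrays was left out, with values between -0.77 and -0.60. Zfp746, also called PARIS, is a substrate of the ubiquitin ligase parkin. It read 223.3 and 264.5 at 0 h, 402.0 and 397.3 at 3 h, 363.0 and 392.9 at 6 h, and 265.3 and 265.2 at 12 h. Its changes were 0.70 (0.0114), 0.62 (0.0109) and 0.12 (0.585). The 3 h call of Zfp746 was lost without 0 h-1 (0.58), 3 h-1 (0.69) or 3 h-2 (0.71), the 6 h call without 0 h-1 (0.50) or 6 h-2 (0.56), and the 12 h step from 3 h, -0.58 (0.0197), without any 1 of the 4 arrays compared (-0.59 to -0.57).

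Several members with known roles outside DNA silencing rose as well. Zfp346, or JAZ, binds double-stranded RNA. Its signals were 396.4 and 419.6 at 0 h, 738.6 and 743.9 at 3 h, 1256 and 1367 at 6 h, and 1377 and 1242 at 12 h. It rose in steps, with changes of 0.85, 1.66 and 1.66, each ± 0.12, and it was the 1 member called between 6 h and 3 h (0.82, limma adjusted p = 0.00495; 0.81 and 0.0568 without 3 h-1, and 0.56 and 0.0643 with the mean of all its probe sets). Zfp622, a factor in the maturation of the large ribosomal subunit, read 2517 and 2846 at 0 h, 3964 and 4273 at 3 h, 4990 and 5373 at 6 h, and 5577 and 5293 at 12 h. Every treated array exceeded both 0 h arrays. The changes of Zfp622 were 0.62, 0.95 and 1.02, each ± 0.11; the further 0.40 at 12 h over 3 h (0.0187) was lost without either 3 h array (0.35 and 0.45) or 12 h-1 (0.36).

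Zfp330, a nucleolar protein, had changes of 0.43 (limma adjusted p = 0.0693), 0.80 (0.00123) and 0.90 (0.000281). Its 12 h step over 3 h, 0.47 (0.0329), was lost without either 0 h array, 3 h-2 or either 12 h array, with values between 0.31 and 0.57. Zfp598, the ubiquitin ligase that acts on collided ribosomes, read 534.4 and 468.9 at 0 h, 595.8 and 679.7 at 3 h, 796.7 and 616.6 at 6 h, and 938.7 and 894.5 at 12 h. It was highest at 12 h on both arrays, a change of 0.86 ± 0.15 (0.000516). The 6 h change of Zfp598, 0.48 (0.0296), was lost without either 0 h array (0.57 and 0.39) or 6 h-1 (0.30), and its 12 h step over 3 h, 0.52 (0.0243), without 3 h-1 (0.43) or either 12 h array (0.49 and 0.56). Zfp638, an RNA- and DNA-binding nuclear protein, had changes of 0.19 (0.431), 0.61 (0.00655) and 0.54 (0.00809); the last 2 were lost without 0 h-1 (0.58 and 0.52), and the 12 h value also without 12 h-2 (0.37).

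For Zfp451, a SUMO ligase, the probe sets of the gene did not read alike. The brightest one gave changes of 1.01, 1.43 and 1.40 (limma adjusted p = 0.00328, 0.000124 and 7.54e-05), while the mean of all its probe sets gave 0.40, 0.31 and 0.17 (0.4, 0.449 and 0.687). Zfp91, a ubiquitin ligase of the NF-kappaB pathway, was not called at any time on its brightest probe set (-0.35, -0.09 and 0.06), and its other 2 probe sets above 100 gave 0.63, 0.99 and 1.04 in one case and -0.23, -0.28 and -0.60 in the other. Its step from 3 to 12 h, 0.41 (0.0311), was lost without 3 h-2 (0.30) or either 12 h array (0.48 and 0.34), and was 0.15 with the mean of all probe sets. Across the family, 37 further probe sets of 26 members exceeded 100. Of those that belonged to a called member, 12 of 13 had the direction of the call at 3 h, 19 of 22 at 6 h and 15 of 20 at 12 h.

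Among members with a known role in transcription or splicing, Zfp131 and Zfp703 were called higher and none of the next 6 was called against 0 h. Zfp131, a BTB domain factor that binds Kaiso, had changes of 0.50 (limma adjusted p = 0.0321), 0.59 (0.00688) and 0.62 (0.00317). Its 3 h call was lost without any 1 of the 4 arrays compared (0.40 to 0.60) and its 6 h call without 0 h-1 (0.49) or 6 h-2 (0.44). Zfp703, a corepressor, read 311.4 and 485.8 at 0 h, 605.1 and 592.4 at 3 h, 585.8 and 690.2 at 6 h, and 796.4 and 627.2 at 12 h. The 0 h arrays of Zfp703 lay further apart than the arrays of any later time, relative to their level. Its changes were 0.61 (0.0563), 0.70 (0.0167) and 0.85 (0.00349), and both calls were lost without 0 h-1 (0.38 and 0.53), the 6 h call also without 6 h-2 (0.58). Zfp148, a GC-rich sequence binder, changed by -0.02, 0.06 and 0.13; its other 3 probe sets above 100 gave -0.02, 0.73 and 0.65, then 0.00, 0.34 and 0.59, and -0.17, -0.06 and -0.46. Zfp110, a partner of the p75 neurotrophin receptor, changed by 0.04, 0.02 and -0.27. Neither was called, nor were Zfp318, known for its part in IgD expression in B cells (0.12, 0.00 and 0.11), and Zfp326, of the DBIRD elongation complex (-0.01, 0.22 and 0.38). Zfp644, a partner of the histone methyltransferases G9a and GLP, and Zfp292 were not called against 0 h, at 0.44, 0.21 and -0.24 for Zfp644 and 0.23, 0.18 and -0.35 for Zfp292. Both were lower at 12 h than at 3 h, by log2 changes of -0.67 (0.00903) and -0.58 (0.00775). That step of Zfp644 was lost without 3 h-1 (-0.56) or 12 h-2 (-0.52), and was -0.62 (0.112) with the mean of its probe sets; that of Zfp292 was lost without 3 h-2 (-0.54). The 12 h step of Zfp292 from 6 h, -0.54 (0.0378), was lost when any 1 of the 8 arrays was left out (-0.61 to -0.46).

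Among the falls, that of Zfp704 was the largest among the members at 6 and 12 h. It read 345.4 and 356.2 at 0 h, 194.8 and 201.4 at 3 h, 106.7 and 110.2 at 6 h, and 76.6 and 54.7 at 12 h. Each time lay below the one before on both arrays. The log2 changes were -0.80 ± 0.23 (limma adjusted p = 0.0381), -1.62 (0.000224) and -2.30 (6.61e-06). The 3 h call was lost without any 1 of the 4 arrays compared (-0.82 to -0.78; adjusted p between 0.139 and 0.202), whereas the later calls held for every array left out. With the mean of all its probe sets the 3 and 6 h changes were -1.34 (0.0292) and -1.08 (0.0406), and the step from 3 to 12 h was -0.84 (0.113) in place of -1.50 (0.000605).

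Zfp503, a corepressor of the same family as Zfp703, fell late. Its signals were 573.4 and 624.1 at 0 h, 479.5 and 703.7 at 3 h, 340.3 and 564.4 at 6 h, and 196.2 and 295.2 at 12 h. The 3 h arrays overlapped the 0 h arrays, the 6 h arrays lay below them but far apart, and the 12 h arrays lay below all others. The changes were -0.04 (limma adjusted p = 0.943), -0.44 (0.221) and -1.29 ± 0.25 (0.00118), and -1.24 (0.00356) at 12 h over 3 h. Zfp703 had the opposite direction at 12 h. Zfp64, a transcription factor, read 342.4 and 316.1 at 0 h, 298.3 and 298.8 at 3 h, 219.4 and 304.8 at 6 h, and 148.1 and 132.8 at 12 h. Its 12 h change was -1.19 ± 0.19 (0.000324), or -0.64 (0.0336) with the mean of all its probe sets, and its 12 h step from 3 h was -1.05 (0.00203), or -0.65 (0.0499). Its step from 6 h, -0.85 (0.0257), was lost without 0 h-1 (-0.85), 6 h-2 (-0.62) or either 12 h array (-0.92 and -0.77), and was -0.42 (0.299) with the mean of its probe sets.

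Zfp281, which binds GC-rich promoters and is known from embryonic stem cells, read 487.6 and 545.2 at 0 h, 358.4 and 446.6 at 3 h, 318.7 and 351.7 at 6 h, and 203.2 and 255.4 at 12 h. Every treated array lay below both 0 h arrays, and the changes were -0.36 (limma adjusted p = 0.209), -0.61 (0.0185) and -1.15 ± 0.17 (0.000179). The 6 h call was lost without either 0 h array (-0.69 and -0.53) or 6 h-1 (-0.54), and the step of -0.79 (0.00592) from 3 to 12 h without 3 h-2 (-0.64) or 12 h-1 (-0.63). Zfp825 had changes of -0.46 (0.135), -0.59 (0.0333) and -1.08 (0.000541). Its 6 h call was lost without 0 h-1 (-0.43) or either 6 h array (-0.64 and -0.54) and with the mean of its probe sets (-0.51, adjusted p = 0.223), and its 12 h step from 3 h, -0.62 (0.0321), without 3 h-2 (-0.47) or either 12 h array (-0.67 and -0.57).

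Zfp568, a KRAB protein that silences a placental Igf2 transcript in the mouse embryo, changed by -0.33 (limma adjusted p = 0.457), -0.74 (0.0452) and -1.03 (0.00578). Its 6 h call was lost without any 1 of the 0, 3 or 6 h arrays (-0.89 to -0.59) and its 12 h call without 12 h-1 (-0.75), and neither was called with the mean of its probe sets (-0.43 and -0.61). Zfp101 read 285.2 and 288.2 at 0 h, 225.5 and 272.0 at 3 h, 184.1 and 210.2 at 6 h, and 65.0 and 146.9 at 12 h. Its 12 h arrays differed more than 2-fold from each other, and the 12 h change was -1.47 (0.00134), or -0.93 without 12 h-1. The step of Zfp101 from 3 to 12 h, -1.27 (0.00784), was lost without 3 h-2 (-1.14) or 12 h-1 (-0.72), and was 0.04 with the mean of all probe sets. Zfp160, near the threshold of membership, had a 12 h change of -1.26 (0.011), lost without 0 h-2 (-1.13) or 12 h-2 (-1.12).

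The bright genes Zfp106 and Zfp207 also fell. Zfp106, an RNA-binding protein needed in motor neurons and muscle, read 996.4 and 950.1 at 0 h, 558.9 and 569.9 at 3 h, 566.8 and 628.8 at 6 h, and 586.1 and 758.5 at 12 h. All treated arrays lay below both 0 h arrays, with changes of -0.78 (limma adjusted p = 0.00318), -0.70 (0.00292) and -0.54 (0.00872). The 12 h call of Zfp106 was lost without 0 h-1 (-0.51) or 12 h-1 (-0.36). Its 2 further probe sets above 100 gave -0.17, 0.37 and 0.39, and -0.56, -0.22 and 0.07, and the mean over its probe sets was not called (-0.53, -0.15 and -0.13). Zfp207, or BuGZ, which binds Bub3 at the mitotic spindle, had changes of -0.30 (0.159), -0.51 (0.01) and -0.52 (0.00605). Both calls were lost without 0 h-1 (-0.38 and -0.39), the 12 h call also without 12 h-2 (-0.38), and neither was called with the mean of its probe sets (-0.52 and -0.30).

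A run of 5 members on chromosome 17, Zfp54, Zfp51, Zfp53, Zfp52 and Zfp948 in that order, has no other protein-coding gene between them in the RefSeq annotation, and its genes did not follow one time course. Their promoters are shown where RefSeq's table (GRCm38.p6) holds them for the genes at the centre of the contrast: Zfp53 and Zfp52, which ended low, and Zfp948, which ended high. Each stretch runs on the plus strand, 5′ to 3′, from 250 bases before to 50 bases after the annotated start, at chr17:21488738-21489037 for Zfp53, chr17:21535289-21535588 for Zfp52 and chr17:21566728-21567027 for Zfp948. Capitals mark the GC box, GGGCGG, the only motif of those searched for that matched these stretches on either strand.
Zfp53: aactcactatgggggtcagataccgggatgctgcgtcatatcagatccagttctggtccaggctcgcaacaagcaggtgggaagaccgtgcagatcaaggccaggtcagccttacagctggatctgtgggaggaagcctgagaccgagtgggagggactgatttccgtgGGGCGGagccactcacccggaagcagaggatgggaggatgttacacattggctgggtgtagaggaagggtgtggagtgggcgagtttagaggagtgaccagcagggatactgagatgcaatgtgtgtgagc
Zfp52: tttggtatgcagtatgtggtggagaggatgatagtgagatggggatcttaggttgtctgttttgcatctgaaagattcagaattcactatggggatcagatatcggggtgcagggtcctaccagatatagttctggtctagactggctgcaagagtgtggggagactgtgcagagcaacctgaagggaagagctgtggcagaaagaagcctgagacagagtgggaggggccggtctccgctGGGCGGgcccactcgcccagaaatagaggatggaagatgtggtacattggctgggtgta
Zfp948: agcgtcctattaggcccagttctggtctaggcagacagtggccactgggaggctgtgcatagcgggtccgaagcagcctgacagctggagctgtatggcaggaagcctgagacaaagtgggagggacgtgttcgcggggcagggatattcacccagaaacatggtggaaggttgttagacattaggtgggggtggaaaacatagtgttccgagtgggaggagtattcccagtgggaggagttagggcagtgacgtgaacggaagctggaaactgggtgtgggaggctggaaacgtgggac
The Zfp53 and Zfp52 stretches each hold 1 GC box and that of Zfp948 holds none. No promoter was available for Zfp51, which also ended high, so this contrast rests on 1 high gene. A GC box is in 35.7% of all promoters searched, and its link to the time courses was not tested. In local alignments, Zfp52 and Zfp53 were identical in 73.7% of 232 columns, Zfp948 and Zfp53 in 69.8% of 222, and Zfp948 and Zfp52 in 66.5% of 200.

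In signal, Zfp52 read 341.7 and 366.9 at 0 h, 568.7 and 739.2 at 3 h, 374.5 and 510.0 at 6 h, and 151.5 and 226.0 at 12 h. It was above its 0 h level at 3 h and below it at 12 h, with no overlap at either time, and was the 1 member called in both directions: 0.86 ± 0.21 at 3 h (limma adjusted p = 0.0183), 0.30 at 6 h (0.337) and -0.91 at 12 h (0.00409). Its 3 h call was lost without either 0 h array (0.81 and 0.91) or 3 h-2 (0.67), and with the mean of its probe sets (0.89, adjusted p = 0.0958). The 12 h call was lost without 12 h-1 (-0.63, adjusted p = 0.0511), as was the step of -1.20 after 6 h (-0.93), while the step of -1.77 from 3 to 12 h (0.000113) was called whichever array was left out.

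Zfp53 had the same shape. It read 432.4 and 423.0 at 0 h, 516.0 and 891.9 at 3 h, 368.3 and 565.4 at 6 h, and 182.4 and 269.1 at 12 h. The changes were 0.66 ± 0.26 (limma adjusted p = 0.125), 0.09 (0.833) and -0.92 (0.0125), and the step from 3 to 12 h was -1.58 (0.000981). The 12 h call was lost without either 0 h array (-0.91 and -0.94) or 12 h-1 (-0.65), and the step of -1.02 after 6 h (0.0422) without either 0 h array, 6 h-2 (-0.71) or 12 h-1 (-0.75). Whether probes of Zfp52 also bind transcripts of Zfp53, or the reverse, was not tested.

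Zfp948, next to Zfp52, stayed high. It read 187.7 and 198.0 at 0 h, 431.0 and 586.7 at 3 h, 417.3 and 865.7 at 6 h, and 466.6 and 529.6 at 12 h. Its 6 h arrays differed about 2-fold from each other, and all treated arrays exceeded both 0 h arrays, with changes of 1.35 ± 0.26 (limma adjusted p = 0.00467), 1.60 (0.000635) and 1.33 (0.00133). The 3 h call was lost without 3 h-2 (1.13, adjusted p = 0.054). On the other side of the pair, Zfp51 read 105.6 and 122.2 at 0 h, 224.2 and 208.0 at 3 h, 300.6 and 330.0 at 6 h, and 237.6 and 282.7 at 12 h. It too stayed up, with changes of 0.88 (0.00907; lost without 0 h-1, 0.78, or 3 h-1, 0.83), 1.41 (0.000161) and 1.14 (0.000419). Zfp54, at the end of the run, had changes of 1.06 (0.0407), 0.93 (0.0419) and 0.57 (0.171). The 3 h call of Zfp54 was lost without either 0 h array (0.90 and 1.22) or 3 h-2 (0.75), and its 6 h call without either 0 h array (0.76 and 1.09) or 6 h-2 (0.70).

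**Figure D5:**
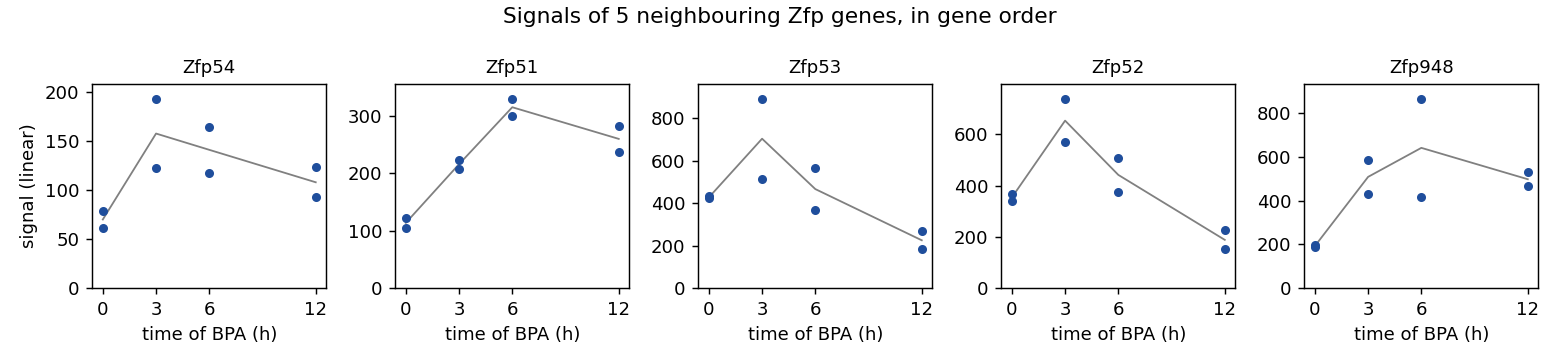
Deposited signal on each array (points) and the mean of the 2 arrays (line) against hours of BPA for the 5 neighbouring genes Zfp54, Zfp51, Zfp53, Zfp52 and Zfp948, in gene order. Zfp53 and Zfp52 end below their 0 h arrays at 12 h, while Zfp51 and Zfp948 on either side end above theirs.

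Across the family, 18 pairs of members, made up of 31 genes, were next to each other with no other protein-coding gene between. At 3 h both genes of a pair were called higher in 4 pairs, 1 gene in 7 and none in 7. At 6 h the counts were 3, 11 and 4. At 12 h both were higher in 2 pairs, both lower in 1, opposite in 2, and 1 gene was called in 5. The 2 pairs higher together at every time were Zfp623 with Zfp707 and Zfp93 with Zfp61. The 2 opposite pairs were Zfp51 with Zfp53 and Zfp52 with Zfp948.

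RefSeq's table held 115 promoters of 93 members, each 300 bases long. A GC box, GGGCGG on either strand, was in 53.9% of them, against 35.7% of the 32851 promoters in the table. The NRF1 motif was in 5.22%, against 0.971%, and the ETS motif CCGGAAGT in 6.96%, against 3.89%. Of factors of stress responses, TGATGNAA, the ATF4/CHOP element, was in 2 of the 115 (1.74%), against 3.97% of the table, and the AP-1 motif TGANTCA in 6 (5.22%), against 7.81%. The other motifs searched for were the cAMP response element (0.87% against 1.79%), the E-box CACGTG (6.96% against 7.15%) and the YY1 site (3.48% against 1.4%). None of these differences was tested. Among the 54 promoters of members called higher, the GC box was in 48.1%, NRF1 in 7.41%, ATF4/CHOP in 1.85% and AP-1 in 5.56%. Among the 52 of members called at no time the shares were 57.7%, 3.85%, 1.92% and 5.77%. Of the 10 of members called lower, 70% held a GC box and none an NRF1, ATF4/CHOP or AP-1 motif. Zfp52, called in both directions, is in both the higher and the lower group. These are matches of letters in a fixed window, counted on both strands, and promoters of 1 gene can overlap.

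Among genes of the machinery that KRAB proteins work with, the share called higher was near that of all genes at each time. In a list of 19, 1 gene makes up 5.26%, so no difference is read from these shares. The difference of this list from the members was not tested. Of 19 corepressor genes, 1 was called higher at 3 h, 3 at 6 h and 3 at 12 h, and 0, 1 and 5 were called lower. The shares higher were 5.26%, 15.8% and 15.8%, against 8.55%, 16.8% and 20.9% of all genes, and those lower 0%, 5.26% and 26.3%, against 3.53%, 9.73% and 17.5%. Their median changes were 0.10, -0.09 and -0.12. Trim28, the corepressor that binds the KRAB box, was not called, at -0.02, -0.02 and -0.22. Mphosph8, the HUSH complex subunit that reads methylated histone H3, read 347.0 and 338.1 at 0 h, 613.6 and 648.5 at 3 h, 752.5 and 929.5 at 6 h, and 760.3 and 893.0 at 12 h. It was the 1 corepressor gene called higher at all 3 times, with changes of 0.87, 1.27 and 1.25, each ± 0.14. At 12 h the DNA methyltransferases Dnmt3a and Dnmt1 changed by -1.13 (limma adjusted p = 0.00164) and -0.70 (0.000355), and the chromatin remodeller Smarcad1 by -0.76 (0.000891). With the mean of all probe sets Dnmt3a and Smarcad1 were not called (-0.48 and -0.29).

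Zinc finger genes outside the Zfp series, grouped by symbol, gave smaller lists, to be read against 8.55%, 16.8% and 20.9% of all genes called higher and 3.53%, 9.73% and 17.5% called lower. Of 5 Zscan genes, 3 were called higher at each time and 0 lower, with medians of 0.68, 0.86 and 0.48, led by Zscan22 (1.06, 1.10 and 0.69). Of 5 Zkscan genes, 3, 3 and 2 were higher and 0 lower, led by Zkscan6 (1.13, 1.43 and 1.24); the rise of Zkscan14 at 3 h, 0.84, was lost without 0 h-2 (0.52) or either 3 h array (0.92 and 0.76) and was -0.04 with the mean of its probe sets. Of 21 Zbtb entries, 1 of them the antisense RNA Zbtb11os1, 4, 8 and 7 (19%, 38.1% and 33.3%) were higher and 1, 1 and 4 (4.76%, 4.76% and 19%) lower, with Zbtb48 at 1.03, 1.25 and 0.94 and Zbtb22 at -0.36, -0.77 and -1.68. Of 12 Klf genes, 4, 5 and 5 (33.3%, 41.7% and 41.7%) were higher and 0, 1 and 3 (0%, 8.33% and 25%) lower, among them Klf10, an early response gene, at 3.23, 3.51 and 2.60. Of 3 Egr genes, 2 were higher at each time: Egr1, the classical immediate-early gene, changed by 3.74, 3.31 and 2.52, and Egr2 by 2.93, 2.14 and 1.23. Of 3 Sp genes none was called. Of 14 CCCH entries, 7, 5 and 9 (50%, 35.7% and 64.3%) were higher and 0, 1 and 2 (0%, 7.14% and 14.3%) lower. The entries were taken by symbol and include Zc3hc1, whose finger is of the C3HC type. It is 1 of the 9 higher at 12 h (0.48).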

How the data were processed

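The deposited values were read as linear intensity, one signal per probe set and array, per the file headers; the software and the summary algorithm are not stated in these sources. The mean of each array without the top and bottom 2 percent was 499.96, so the deposited arrays had been scaled to one level. Of 22690 probe sets, 64 controls were left out. In GEO's platform annotation 20380 of the others carried 1 gene symbol, 691 several and 1555 none. Of those with 1 symbol, 20351 had an Entrez ID found in RefSeq and took the RefSeq symbol. How many symbols changed by this was not counted. The brightest probe set stood for each of 12393 genes. The offset of 7.9 was the 10th percentile of all values. Genes above the 30th percentile of mean log2 signal were kept, 8675 in all. limma 3.58.1 in R 4.3.3 fitted 1 mean per time over the 8 arrays (lmFit, eBayes with an intensity trend, 4 residual degrees of freedom), with Benjamini-Hochberg adjustment over all genes tested. On simulated data for 12 h against 0 h over 8675 genes, 78.9% of 2-fold and 95.0% of 4-fold changes were called, with 6.06% false calls. The number of arrays, 2 a time, limits the precision.

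The members and lists were chosen with earlier results of these data known. Named members are, per time, the 6 called ones with the largest rise and the 6 with the largest fall whose arrays did not overlap, the 3 largest per step between times, members with a known role, and up to 4 genes per further list. Zfp746, Zfp219, Zfp821, Zfp975, the neighbours Zfp93, Zfp51 and Zfp54, and genes named as part of a count of 6 or fewer were named after their values were seen. Neighbours were taken from RefSeq (GRCm38.p6). Replicate numbers did not pair the arrays. Alternatives were another scaling (quantile or equal medians), offset, filter, variance model, a fit on only the groups compared, the mean of all probe sets, another membership threshold, a replicate block and leaving out each array.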

Additional observations from a re-analysis of the deposited data

Results flagged for a closer look

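For 21 members the change from 0 h differed between BPA times by limma's test of the difference itself (adjusted p under 0.05). At 12 h over 3 h, 13.4% of members and 12.4% of all genes were lower, and 5.36% and 9.52% higher. At 12 h over 6 h, 4.46% of members and 3.85% of all genes were lower. At 6 h over 3 h, 0.893% and 0.565% were higher. The members' shares were thus near or below those of all genes, and no difference is read from them. Between 6 and 3 h the member called was Zfp346, higher by 0.82 on the log2 scale. Between 12 and 6 h the log2 differences were -0.69 for Zfp113, -0.85 for Zfp64, -1.20 for Zfp52, -1.02 for Zfp53 and -0.54 for Zfp292. Between 12 and 3 h the lower genes were Zfp52 (-1.77), Zfp53 (-1.58), Zfp704 (-1.50), Zfp101 (-1.27), Zfp503 (-1.24), Zfp64 (-1.05), Zfp975 (-0.87), Zfp113 (-0.84), Zfp281 (-0.79), Zfp644 (-0.67), Zfp825 (-0.62), Zfp219 (-0.59), Zfp292 (-0.58), Zfp746 (-0.58) and Zfp821 (-0.54). The higher genes over the same hours were Zfp37 (0.85), Zfp346 (0.81), Zfp598 (0.52), Zfp330 (0.47), Zfp91 (0.41) and Zfp622 (0.40), of which only 1, Zfp346, was called without the intensity trend. The steps that did not depend on any single array were those from 3 to 12 h of Zfp52, Zfp53, Zfp704, Zfp503, Zfp64, Zfp113 and Zfp346; Zfp219 and Zfp821 were lost without any 1 of the 0, 3 or 12 h arrays (-0.73 to -0.44 and -0.56 to -0.52) and Zfp975 without 3 h-1 (-0.79), 3 h-2 (-0.95) or 12 h-1 (-0.62). The arrays that the other steps rest on are given with each gene above.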

How the results depend on the processing

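With 1 array left out at a time, the members called against 0 h numbered 24 to 44 at 3 h, 33 to 59 at 6 h and 42 to 62 at 12 h; those called higher 23 to 42, 31 to 53 and 32 to 48, and those called lower 1 to 2, 2 to 6 and 8 to 14. Called between times were 0 to 1 at 6 h over 3 h, 0 to 5 at 12 h over 6 h and 9 to 26 at 12 h over 3 h, and 43 to 66 by the F test. The member medians lay between 0.38 and 0.49, 0.44 and 0.55, and 0.29 and 0.44; the median at 6 h over 3 h, 0.08, ranged between -0.01 (without 6 h-2) and 0.12. The upward direction of the members' median against 0 h was kept under every alternative run. It was 0.36 and 0.40 at 3 and 6 h after quantile normalization, and 0.30 and 0.39 with arrays scaled to the same median. That scaling moved the median of all genes to -0.07 at 3 h, against 0.06, and to -0.05 at 6 h, against 0.07; the members' median stayed 0.37 and 0.44 above it, and the median at 12 h over 3 h, -0.08, became 0.04. At 3 h the median was 0.44 with the offset at 1.975, 0.41 with it at 31.6, 0.42 with the mean of all probe sets, 0.46 without probe sets shared between transcripts, 0.44 with a membership threshold of 50 and 0.42 with one of 200. At 12 h it was 0.25 with the mean of all probe sets. The 5 members called at 12 h over 6 h were 2 under quantile normalization, equal medians, the fit on 2 groups or the mean of all probe sets, 1 without a filter and 0 without the intensity trend. The 1 called at 6 h over 3 h was 0 without the trend or with the mean of all probe sets. The 2 called lower at 3 h were 1 without a filter, with a filter at the 50th percentile or with a threshold of 200, and the 6 called lower at 6 h were 2 with the mean of all probe sets. Arrays of the same replicate number deviated together only weakly (correlations of -0.011 to 0.122), so the numbers do not pair them; with the replicate block, 2 members were called at 6 h over 3 h and 10 at 12 h over 6 h. The mean of all probe sets turned Zfp101 at 12 h over 3 h to 0.04 and Zkscan14 to -0.04 at 3 h and -0.11 at 12 h. Of the named members' calls, quantile normalization and equal medians each ended those of Zfp54 at 3 and 6 h, Zfp131 at 3 h and Zfp598 at 6 h and the late steps of Zfp113, Zfp53, Zfp292, Zfp825, Zfp219 and Zfp821. Without a filter the calls of Zfp704 and Zfp54 at 3 h and of Zfp568, Zfp825 and Zfp54 at 6 h were lost, with the 12 h steps of Zfp37, Zfp825, Zfp219, Zfp821 and Zfp975 from 3 h and of Zfp64, Zfp53, Zfp113 and Zfp292 from 6 h, and without the trend those of Zfp948, Zfp52, Zfp131 and Zfp54 at 3 h, Zfp568, Zfp207, Zfp598, Zfp703 and Zfp54 at 6 h and Zfp53 at 12 h, with the 6 h step of Zfp346, all 5 steps from 6 to 12 h and those from 3 to 12 h of Zfp37, Zfp598, Zfp91, Zfp330, Zfp622 and Zfp644. The fit on 2 groups ended the steps of Zfp113, Zfp64 and Zfp292 from 6 h and of Zfp825, Zfp219 and Zfp821 from 3 h, and the mean of all probe sets those of Zfp64, Zfp53 and Zfp292 from 6 h. The cause of these changes was not tested. The files give no detection calls, so a low signal cannot be told from background.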
